A study of Mus musculus with 28 samples.

Results

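The transcripts described here encode 7 subunits of the GABA-A receptor: the alpha subunits Gabra2, Gabra3, Gabra4 and Gabra5, the beta subunits Gabrb1 and Gabrb2, and the delta subunit Gabrd. They were taken by gene symbol from the 15560 symbols named by the tested probes of the array, with 1 probe per gene, the one with the highest mean level. All 7 probes were well above background on all 28 arrays. A further 12 genes of the same family were followed as a group, of which 8 had a tested probe.

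Transcriptome Tomography measures RNA along a body axis by cutting a frozen brain from end to end and collecting neighbouring sections in 1 tube, called a fraction. The animals were 3 male C57BL/6J mice aged 3 weeks, with no treatment or engineered allele named in the labels. Mouse 1 gave 12 coronal fractions, mouse 2 gave 6 horizontal fractions and mouse 3 gave 10 sagittal fractions, and each fraction was hybridised to 1 array. Thus no position was measured in a second animal, plane and mouse cannot be told apart, and the p-values describe the scatter of fractions within 1 brain.

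Levels are log2 of the processed signal relative to the 75th percentile of the same array, so a difference of 1 is a doubling between fractions. A level ranks the fractions for 1 probe and does not rank genes, because probes differ in brightness. Positions are given as fraction numbers. The fixed marker lists place them. The hindbrain list had its top mean level in coronal fraction 1 (1.87) and the olfactory bulb list in coronal fraction 12 (5.49). The cerebral cortex list peaked in horizontal fraction 1 (2.18). Among the horizontal fractions the hypothalamus list peaked in fraction 6 (4.38), although it reached 4.44 in coronal fraction 7. The cerebellar granule cell list was at 3.67, 4.75 and 4.63 in coronal fractions 1 to 3 and at most 2.76 in the others. By its label, coronal fraction 12 holds the next fraction as well. The neuron list lay between 5.76 and 6.68 over all 28 arrays. Each fraction is bulk tissue, where fewer cells of a type and less RNA per cell cannot be told apart. Sagittal fraction 1 had the lowest 75th percentile of signal (152, against up to 663 on other arrays) and sagittal fraction 9 the next (189), and calls on the subunits that change without them are given both ways.

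GABA-A receptors are chloride channels opened by GABA, the main inhibitory transmitter of the brain, and each channel is a ring of subunits drawn from several families. The alpha and beta subunits form the GABA binding site, and the alpha subunit with its gamma neighbour forms the site of the benzodiazepines. A delta subunit in place of gamma gives receptors outside the synapse that carry tonic inhibition, with Gabra4 in forebrain neurons and with Gabra6 in cerebellar granule cells. Gabra2, Gabra3 and Gabra5 are prominent early in development. The genes lie in clusters, and 6 of the 7 subunits sit beside other members of the family in the RefSeq gene order: Gabra2, Gabra4 and Gabrb1 with Gabrg1 on chromosome 5, Gabra5 with Gabrg3 on chromosome 7, Gabrb2 with Gabra6 on chromosome 11, and Gabre, Gabra3 and Gabrq on chromosome X. Gabrd is on chromosome 4.

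Promoter sequence from RefSeq (assembly GRCm38.p6) was matched for 6 of the 7 subunits. The 250 bases before the first listed start are shown for 3 subunits. Gabra3 and Gabra5 were the subunit pair with the highest Pearson's r of these levels over the 28 fractions, and the trend of Gabrb2 passed in the sagittal series. The sequences run 5′ to 3′ on the strand of the gene, and capitals mark matches, on either strand, to a TATA box (TATAAA) or a GC box (GGGCGG).
Gabra3, chrX:72656920-72657169, minus strand: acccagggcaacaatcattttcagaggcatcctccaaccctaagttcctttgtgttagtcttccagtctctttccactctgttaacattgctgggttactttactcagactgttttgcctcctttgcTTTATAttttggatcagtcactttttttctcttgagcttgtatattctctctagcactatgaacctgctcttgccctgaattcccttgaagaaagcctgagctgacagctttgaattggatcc
Gabra5, chr7:57510060-57510309, minus strand: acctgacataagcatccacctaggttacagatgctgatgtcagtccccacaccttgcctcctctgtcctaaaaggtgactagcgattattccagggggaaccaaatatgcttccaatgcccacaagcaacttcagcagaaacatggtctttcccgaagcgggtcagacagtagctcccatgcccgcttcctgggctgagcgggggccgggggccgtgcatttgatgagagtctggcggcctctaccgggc
Gabrb2, chr11:42420190-42420439, plus strand: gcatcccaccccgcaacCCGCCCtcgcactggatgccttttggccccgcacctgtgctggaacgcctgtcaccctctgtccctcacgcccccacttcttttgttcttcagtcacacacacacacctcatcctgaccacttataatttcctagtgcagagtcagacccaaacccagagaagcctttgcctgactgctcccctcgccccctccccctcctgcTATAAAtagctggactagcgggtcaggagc
The Gabra3 window held 1 TATA box match, a GC content of 42.4% and 0 CpG. The Gabra5 window held no match to these motifs, a GC content of 56.4% and 9 CpG. The Gabrb2 window held 1 match to each motif, a GC content of 58.8% and 8 CpG, while the windows of its other listed starts held neither motif. Over all 32851 promoter windows of this length, 12.4% held the TATA box, 32.7% held the GC box, and the medians were 52.4% GC and 6 CpG. Thus the windows of Gabra3 and Gabra5 shared neither motif. A match describes the letters only.

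The first question was where along each axis each subunit is high or low. Along the coronal axis Gabra4 and Gabrb1 were highest in the middle of the brain, Gabra3 was high from fraction 4 forward, and Gabra5 was lowest in the cerebellar fractions and highest at the olfactory end. Gabra4 spanned 7.99-fold and Gabra5 12.9-fold over the 12 fractions. In this series 4 of the 7 subunits had a position trend in limma's F-test of a spline curve at an adjusted p under 0.05, against 33.7% of all 32364 probes tested. The median fitted range of all 7 was 1.65 log2, against 0.90 over all tested probes. It was 0.92 against 0.74 in the horizontal series and, the other way round, 0.68 against 1.06 in the sagittal series. Splits of fractions by level given below describe the values, and the share of all probes with the same split was not computed.

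**Figure D1:**
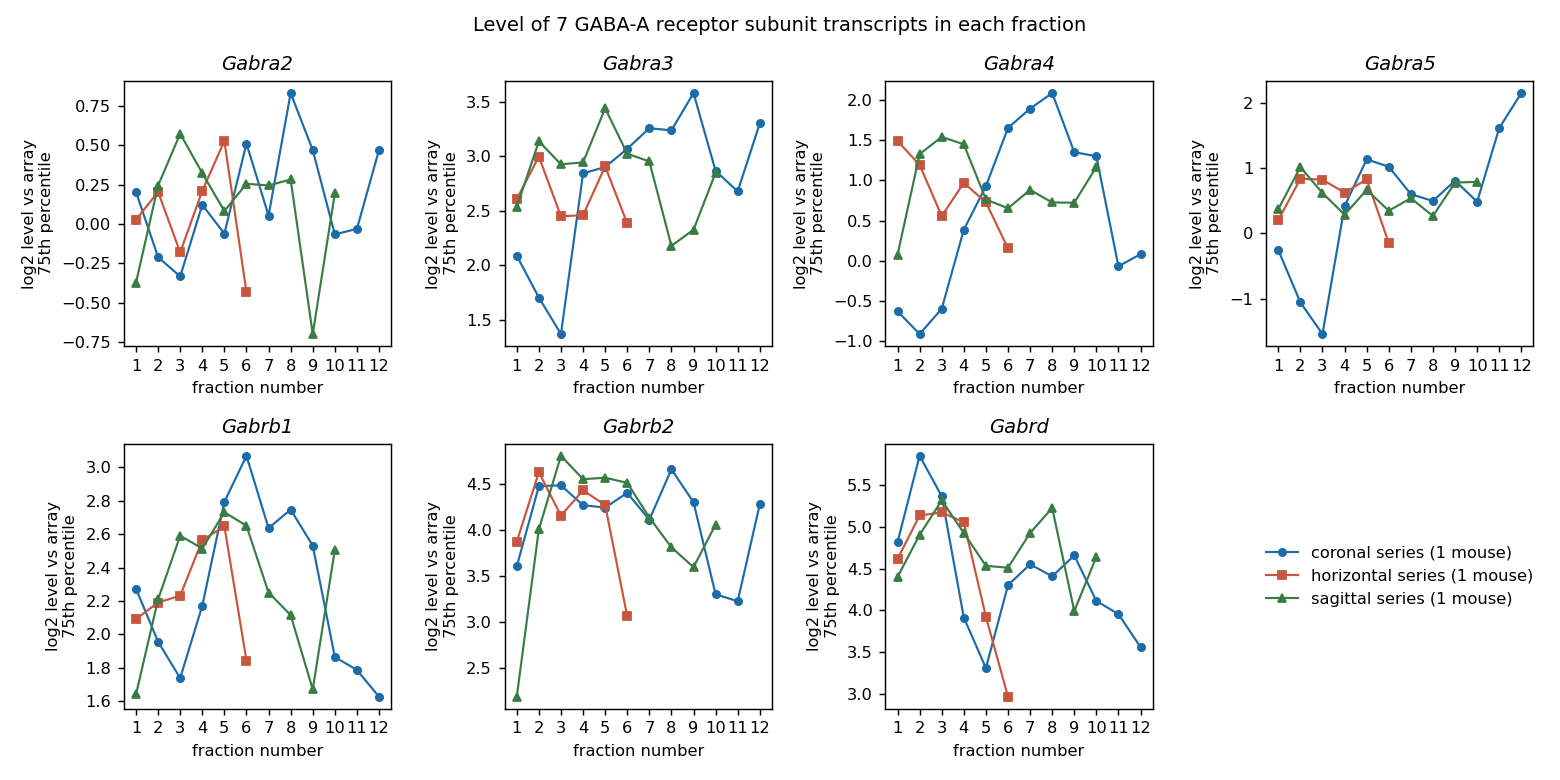
Level of the 7 subunit transcripts (log2 relative to the 75th percentile of the array, y axis, a scale per panel) against fraction number (x axis) in the coronal, horizontal and sagittal series, 1 array per point and 1 mouse per line. Gabra4 rises from -0.91 in coronal fraction 2 to 2.09 in fraction 8, Gabrd is at 5.85 in coronal fraction 2, and Gabrb2 is at 2.19 in sagittal fraction 1.

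Gabra4 encodes an alpha subunit of thalamic, striatal and dentate gyrus neurons, often paired with delta. Its coronal levels from fraction 1 to 12 were -0.63, -0.91, -0.60, 0.39, 0.93, 1.65, 1.89, 2.09, 1.35, 1.30, -0.07 and 0.08. The 3 caudal fractions and the 2 rostral fractions lay below all 7 between them, and 2 of the 11 gaps between neighbours in the order of levels exceeded the residual SD. The fitted curve spanned 2.94 log2 with a residual SD of 0.40 and peaked at fraction 8 (limma, adjusted p 0.00123). The trend passed with each of the 12 fractions left out in turn (adjusted p 0.000926 to 0.00609).

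Gabra5 encodes the alpha subunit of extrasynaptic receptors in hippocampal pyramidal cells and is also expressed in the olfactory bulb. Its coronal levels were -0.26, -1.06, -1.54, 0.42, 1.14, 1.02, 0.60, 0.50, 0.81, 0.48, 1.61 and 2.15. Fractions 1 to 3 were below all others and fractions 11 and 12 above all others, while the 7 in between lay from 0.42 to 1.14. The fitted range was 3.05 log2 with a residual SD of 0.72 (limma, adjusted p 0.0362). The call rested on several fractions: it was lost without fraction 2, 6, 7, 8, 9, 11 or 12, each left out alone, with an adjusted p of up to 0.116.

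Gabra3, an alpha subunit of monoaminergic and reticular thalamic neurons and of the deep cortex, had coronal levels of 2.09, 1.70, 1.37, 2.84, 2.90, 3.07, 3.26, 3.24, 3.58, 2.87, 2.68 and 3.30. Fractions 1 to 3 were below all 9 others, which lay between 2.68 and 3.58. Only 1 of the 11 gaps between neighbours exceeded the residual SD of 0.45, the step from these 3 fractions to the rest. The fitted range was 1.65 log2 (limma, adjusted p 0.0329), and the trend was lost without fraction 2, 6, 7, 8 or 9, each alone (up to 0.104), and with scaling by the array median (0.0760).

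Gabrb1, a beta subunit of hippocampal and other forebrain neurons, had coronal levels of 2.27, 1.96, 1.74, 2.17, 2.79, 3.07, 2.64, 2.75, 2.53, 1.86, 1.79 and 1.63. Fractions 5 to 9 were above all 7 others, but none of the gaps between neighbours exceeded the residual SD of 0.33. The fitted range was 1.30 log2 (limma, adjusted p 0.0438), and 4 of the 12 fits with a fraction left out passed, those without fraction 1, 3, 10 or 12 (0.0155 to 0.0818 over all). It was also lost with scaling by the array median (0.173) or without the filter on dim probes (0.0533).

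The other 3 subunits did not pass along this axis. Gabrd lay between 3.31 (fraction 5) and 5.85 (fraction 2), with the values 4.82, 5.85 and 5.37 in fractions 1 to 3 and 3.31 to 4.66 in all others (adjusted p 0.110). Thus the caudal fractions held the 3 highest values, and the F-test passed only with fraction 1 left out (0.0114). Gabrb2 lay between 3.23 and 4.66 with a median of 4.27 (adjusted p 0.391), and Gabra2 between -0.33 and 0.83 with a median of 0.09 (adjusted p 0.472).

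Slides moved with coronal position: fractions 1 and 2 were on 1 slide, 3 to 10 on another, and 11 and 12 on yet another. With the slide as an added term none of the 4 trends passed (adjusted p 0.125 for Gabra4, 0.334 for Gabrb1, 0.357 for Gabra3 and 0.519 for Gabra5), and 0.745% of all probes did. Within fractions 3 to 10, all on 1 slide, Gabra4 (0.0110), Gabra5 (0.0262) and Gabrb1 (0.0451) passed and Gabra3 (0.0709) did not, against 12.9% of all probes.

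In the horizontal series Gabrd alone passed, 1 of 7 subunits against 15.8% of all probes. Its levels from fraction 1 to 6 were 4.62, 5.13, 5.17, 5.05, 3.92 and 2.97. The 2 ventral fractions were lower than the other 4, and fraction 6 was 4.61-fold lower than fraction 3. The fitted range was 2.34 log2 with a residual SD of 0.13 (limma, adjusted p 0.0186), and the trend was lost without fraction 3 (0.0686), 4 (0.0658) or 6 (0.0694) and with a straight line (0.433). In this series 0 probes at all passed without fraction 3 or without fraction 4.

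The other 6 subunits did not pass in the horizontal series, with adjusted p from 0.129 (Gabrb2) to 0.875 (Gabra3). Horizontal fraction 6 held the lowest value of each of the 7 subunits. This array also had the lowest 75th percentile of signal in the series (259, with 300 in fraction 1). Among horizontal fractions the neuron list was lowest there (6.00) and the hypothalamus list highest (4.38). The part of the low signal in the subunit values, and in the Gabrd trend, was not tested. Gabrb2 was 3.06 there and 3.87 to 4.63 in the other fractions. Gabra5 was -0.15 there and 0.20 to 0.84 elsewhere, and Gabra2 was -0.43 there and -0.18 to 0.53 elsewhere. The median level of the tested probes, relative to the 75th percentile, differed little between arrays (-0.76 to -0.60), whereas with scaling by the median of the whole array it ran from 1.92 to 3.38. With that scaling Gabra4 (0.0254), Gabra5 (0.0139), Gabrb1 (0.0275) and Gabrb2 (0.0145) passed as well as Gabrd (0.00457), against 19347 of all probes.

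In the sagittal series Gabrb2 alone passed, 1 of 7 against 14.7% of all probes. Gabrb2 encodes the most widespread beta subunit. Its levels from fraction 1 to 10 were 2.19, 4.01, 4.81, 4.55, 4.57, 4.51, 4.14, 3.81, 3.60 and 4.06. Fraction 1 was 6.13-fold below fraction 3 and far below every other fraction, and the 4 highest values were in fractions 3 to 6. The fitted range was 2.41 log2 with a residual SD of 0.34 (limma, adjusted p 0.0223).

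Without sagittal fraction 1 the trend of Gabrb2 was lost (adjusted p 0.233), but 0 of all probes passed in that fit, and without fractions 1 and 9 together 2.9% did. The trend was lost also without fraction 3 (0.0555) or 6 (0.0521), and without fractions 1 and 9 together (0.153). A curve with 1 degree of freedom fewer gave 0.126 and scaling by the array median 0.101. Slides also moved with sagittal position, with fractions 1 to 4 on 1 slide and 5 to 10 on another: the slide term gave 0.0512, and fractions 5 to 10 alone gave 0.717, where 0 of all probes passed. The other 6 subunits had adjusted p from 0.154 (Gabrb1) to 0.810 (Gabrd), although Gabrb1 passed without fraction 9 (0.0358) or 10 (0.0151), in fits where 12543 and 15244 of all probes passed. Their ranges ran from 0.75 log2 (Gabra5, 0.27 to 1.02) to 1.47 log2 (Gabra4, 0.07 to 1.54).

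Since the sagittal axis crosses both hemispheres, fractions n and 11 minus n are the nearest thing to a repeat. The root mean square difference between mirror fractions was 0.32 log2 for Gabra5, 0.42 for Gabrd, 0.52 for Gabra2 and Gabrb1, 0.55 for Gabra3, 0.72 for Gabra4 and 0.98 for Gabrb2. The largest was that of Gabrb2 between fractions 1 and 10, where fraction 1 was lower by 1.87. For Gabra2, Gabra3 and Gabrd the largest difference was instead between fractions 2 and 9, with fraction 2 higher by 0.94, 0.81 and 0.91. Whether the cut was symmetric about the midline is not given, so these differences can hold position as well as error.

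To compare the subunits with each other independently of how arrays were scaled, each was set against the mean of the 7 on the same array and the same F-test was run on this log2 ratio. In the coronal series the ratio was highest caudally for Gabrd, in the middle for Gabra4 and rostrally for Gabra5. Here 3 of 7 passed, against 42.7% of all probes, so the count is at the background share. These were Gabra4 (adjusted p 0.00305), Gabra5 (0.0206) and Gabrd (0.0465). The fitted ranges of their ratios were 2.00, 2.70 and 2.38 log2, while the median over the 7 was 0.94 and over all tested probes 1.27.

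**Figure D2:**
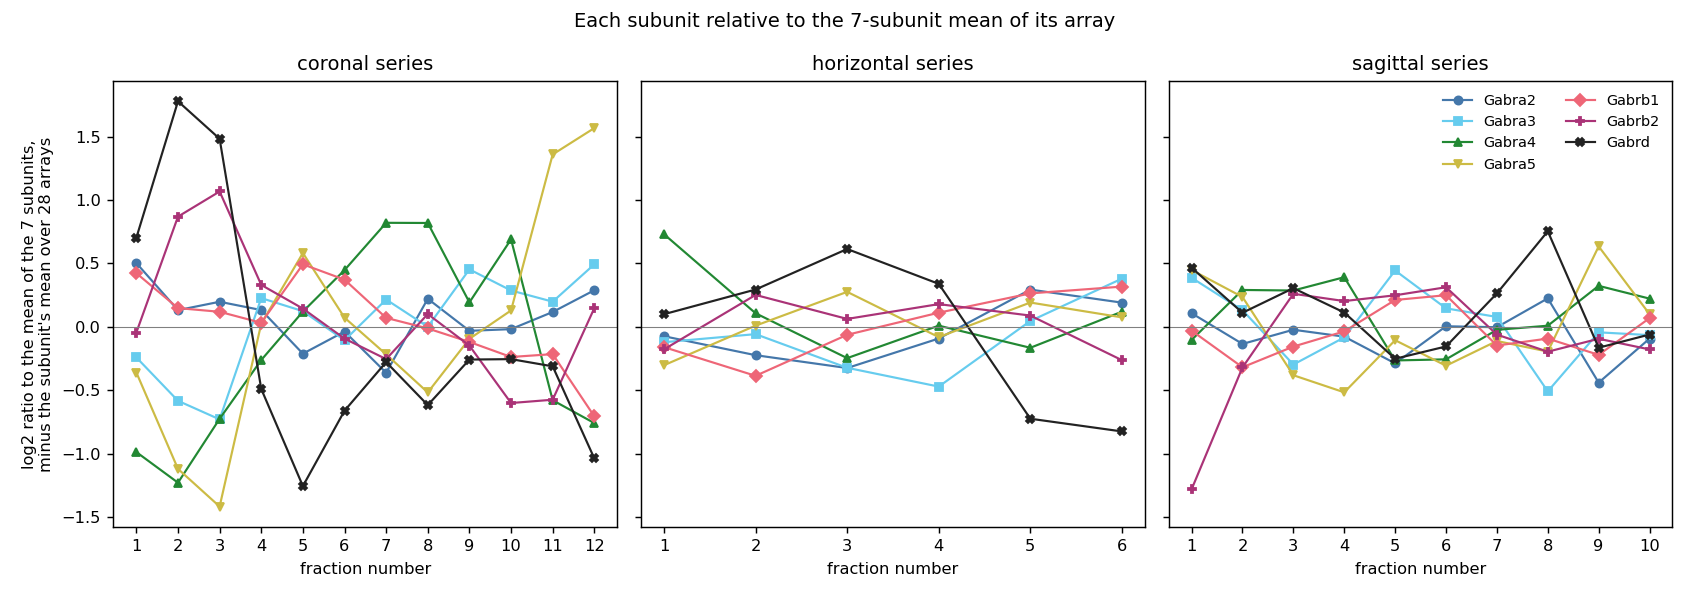
Log2 ratio of each subunit to the mean of the 7 subunits on the same array, minus that subunit's own mean over the 28 arrays (y axis), by fraction number (x axis) in the 3 series, 1 array per point. In the coronal panel Gabrd is highest in fractions 2 and 3, Gabra4 in fractions 7 and 8 and Gabra5 in fractions 11 and 12.

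The ratio of Gabrd was 3.09, 4.16 and 3.87 in coronal fractions 1 to 3 and between 1.13 and 2.13 in all others. The share of all probes whose ratios split in this way was not computed. The ratio of Gabra5 ran from -3.04 in fraction 3 to -0.06 in fraction 12, with -0.27 in fraction 11 and at most -1.04 elsewhere. The ratio of Gabra4 ran from -2.60 in fraction 2 to -0.55 in fractions 7 and 8. Within an array, Gabrd minus Gabra5 changed by 5.50 log2 between fractions 3 and 12, and Gabrd minus Gabra4 by 4.44 between fractions 2 and 8. Gabra4 minus Gabra5, both low in the cerebellar fractions, changed by 3.66 between fractions 8 and 12.

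Within fractions 3 to 10 on their single slide the ratio trends of Gabra4 (0.0275), Gabra5 (0.0205) and Gabrd (0.0297) passed, as did that of Gabrb2 (0.0203), against 57.6% of all probes. With the slide as a term none of the 3 did (0.190, 0.632 and 0.571). The Gabrd call passed in 2 of the 12 fits with a fraction left out, those without fraction 1 (0.00393) and 3 (0.0348), with up to 0.152 in the others, and was lost without the filter (0.0872) or with the second Gabra3 probe (0.0556). That of Gabra5 passed in 10 of 12, failing without fraction 11 or 12 (0.0718 and 0.104), and that of Gabra4 in 12 of 12. In the horizontal series none of the 7 ratio trends passed, against 10.6% of all probes, with Gabrd nearest (adjusted p 0.0958). Before adjustment Gabrd was the 1 subunit under 0.05 in this series (limma, unadjusted p 0.0191). In the sagittal series the ratio of Gabrb2 passed (0.0212), 1 of 7 against 23.1% of all probes, and failed without fraction 1 (0.226), 3 (0.0530) or 1 and 9 together (0.203), with the slide term (0.0535) and within fractions 5 to 10 (0.623).

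The second question was which subunits rise and fall together. Similarity was measured as Pearson's r of the log2 levels over the 28 fractions. No p is given, because fractions of 1 brain share their animal, slides and tissue. Of the 21 pairs of subunits, 1 had r over 0.7 (4.76% of pairs, against 2.73% of all pairs of tested probes) and 0 had r over 0.85, the default threshold of the database built on these data (0.396% of all pairs). The median r was 0.39, against 0.01 over all pairs of probes, and 4 pairs were negative (19.0%, against 49.2%). Thus most pairs were alike in sign, and 1 pair over 0.7 is too few to set apart from the background share.

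**Figure D3:**
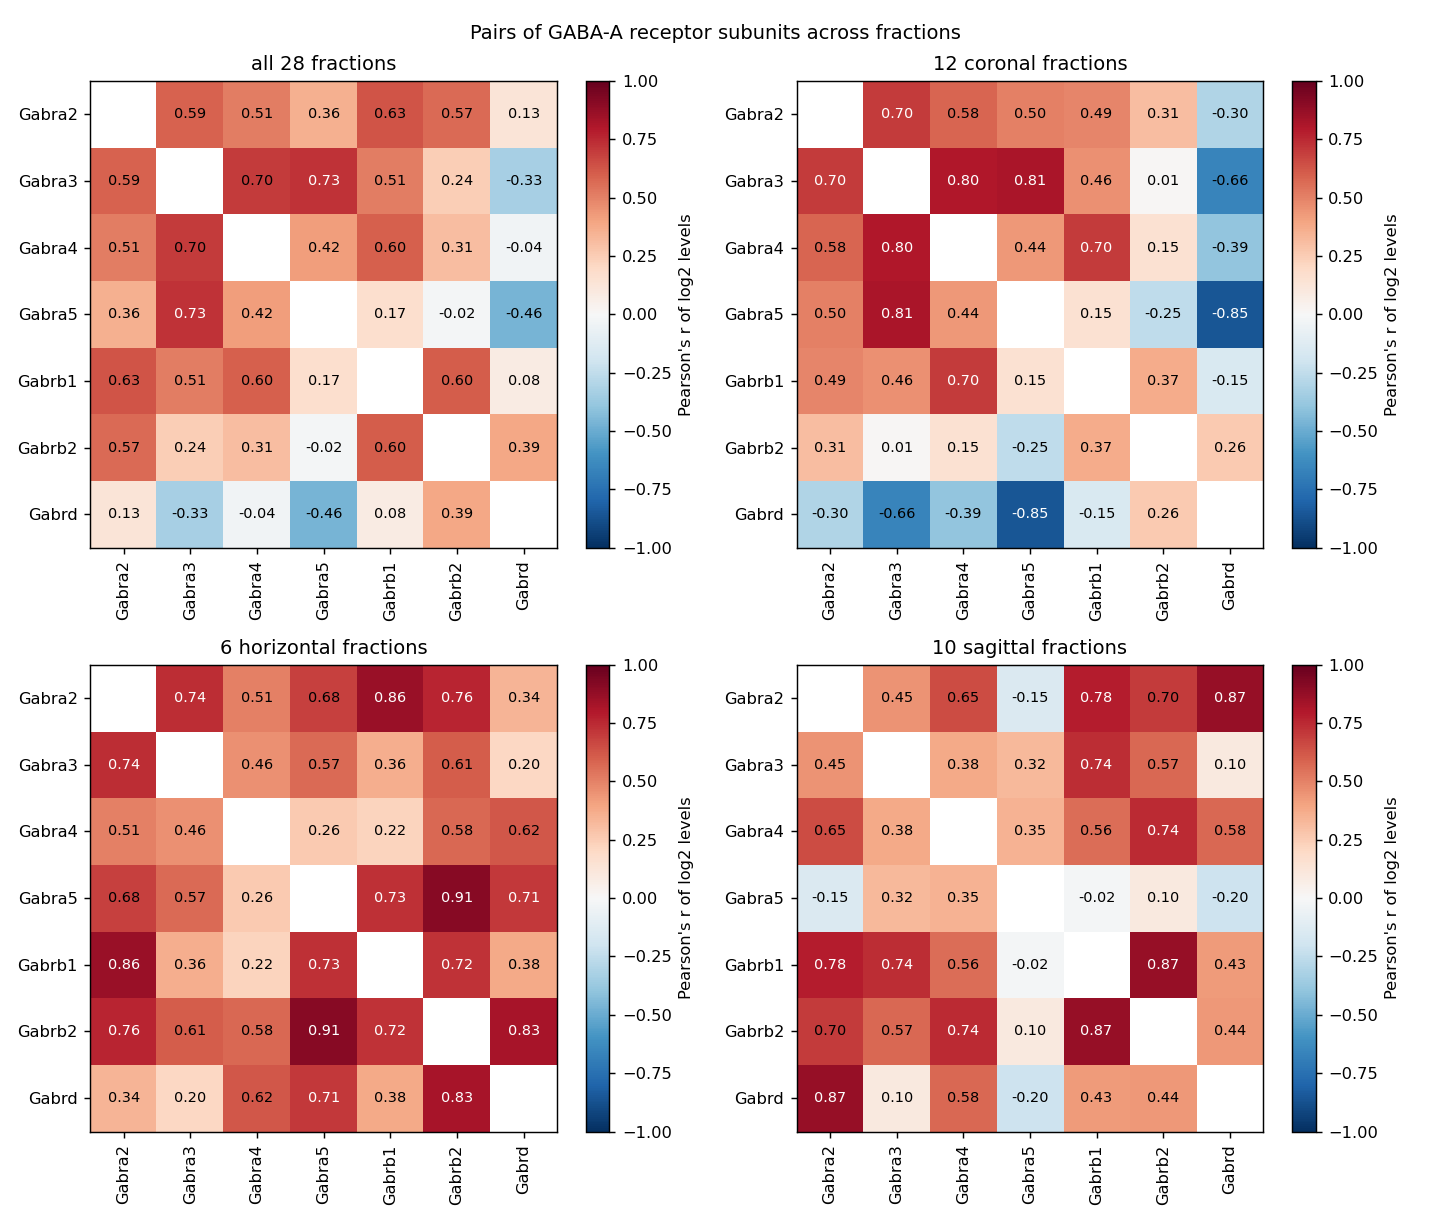
Pearson's r between the log2 levels of each pair of the 7 subunits over all 28 fractions and over the 12 coronal, 6 horizontal and 10 sagittal fractions (colour from -1 to 1, value in each cell). Gabrd is negative with 5 of the other 6 in the coronal panel and positive with all 6 in the horizontal panel.

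Gabra3 and Gabra5 had the highest Pearson's r (0.73), with 0.81 in the coronal, 0.57 in the horizontal and 0.32 in the sagittal series. Gabra3 and Gabra4 followed (r 0.697, with 0.80, 0.46 and 0.38). In both pairs the coronal step from fractions 1 to 3 to the rest was shared, and outside the coronal series the similarity was lower. The order of pairs depended on the measure. By Spearman's rho Gabra3 and Gabra5 had 0.53, below Gabra3 and Gabra4 (0.61) among others. With the array median they had r 0.81, below Gabra2 and Gabrb1 (0.87) among others. The Gabra3 pairs depended on the probe. A second and dimmer Gabra3 probe, well above background on 27 arrays, had r 0.35 with the first over 28 fractions and 0.77, -0.14 and -0.02 in the coronal, horizontal and sagittal series. With it the r of Gabra3 with Gabra5 was 0.42 and with Gabra4 0.29.

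Several pairs of the beta subunits with each other and with alpha subunits had lower values. Gabra2 and Gabrb1, in 1 gene cluster with Gabra4 between them, had r 0.63, with 0.49, 0.86 and 0.78 in the coronal, horizontal and sagittal series. Gabrb1 and Gabrb2 had r 0.60 (0.37, 0.72 and 0.87), Gabra4 and Gabrb1 r 0.60 (0.70, 0.22 and 0.56), and Gabra2 and Gabrb2 r 0.57 (0.31, 0.76 and 0.70). Gabra2 and Gabra3 had r 0.59 (0.70, 0.74 and 0.45), and Gabra3 and Gabrb1 r 0.51 (0.46, 0.36 and 0.74), so the pairs did not fall into separate sets. Each of these was positive in all 3 series, as were 13 of the 21 pairs in all, and no pair was negative in all 3. The shares of all pairs of probes that did so were not computed. Without sagittal fractions 1 and 9 the r of Gabrb2 was 0.52 with Gabrb1 and 0.48 with Gabra2, and that of Gabra2 with Gabrb1 was 0.53, while Gabra3 had 0.75 with Gabra5 and 0.702 with Gabra4.

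Gabrd stood apart from the alpha subunits in the coronal series, where its r was -0.85 with Gabra5, -0.66 with Gabra3, -0.39 with Gabra4 and -0.30 with Gabra2. Over 28 fractions these were -0.46, -0.33, -0.04 and 0.13. In the horizontal series all 4 were positive (0.71, 0.20, 0.62 and 0.34), and in the sagittal series they were -0.20, 0.10, 0.58 and 0.87. Its highest r was with Gabrb2 (0.39). The sign depended on the scaling: the array median gave 0.04 with Gabra5, 0.26 with Gabra3 and 0.27 with Gabra4, whereas for Gabra5 quantile normalization gave -0.53 and normexp -0.44. With each level taken relative to the mean of the 7 subunits, a measure in which negative values are built in, 13 pairs were negative, Gabrd and Gabra3 had -0.73, and Gabra3 and Gabra5 had 0.60. Without sagittal fractions 1 and 9, Gabrd had -0.46 with Gabra5, -0.37 with Gabra3 and 0.05 with Gabra2.

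Of the 12 other GABA-A subunit genes, 8 had a tested probe, among them Gabra6, Gabrg1, Gabrg3, Gabrr1 and Gabrr2. Gabre, Gabrp, Gabrq and Gabrr3 did not and were well above background on 0, 3, 5 and 1 arrays. In the coronal series Gabrg1 (limma, adjusted p 0.0215) and Gabrg3 (0.0131), both gamma subunit genes, had a trend, where 33.7% of all probes did. Gabrr1 (0.630) and Gabrr2 (0.101) did not, nor did the tested genes not named here. No count is given because Gabra6, the alpha subunit of cerebellar granule cells, entered the test only through the fractions where it is high. No count is given for the horizontal or sagittal series either, since Gabra6 was not well above background in every fraction there. Gabrg1 had a sagittal trend (0.0311) and no horizontal one (0.241), and Gabrg3 had neither (0.0882 and 0.237). Of all probes, 14.7% passed in the sagittal and 15.8% in the horizontal series. Without sagittal fraction 1 Gabrg1 did not pass, as none of all probes did.

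Gabra6 had levels of 3.63, 4.91, 4.83, 2.63 and -2.88 in coronal fractions 1 to 5 and was not well above background in fractions 6 to 12. Its coronal profile thus sets measured values against a floor, and no test or r is given for it there. It was not well above background in horizontal fraction 1 and sagittal fraction 1 either, so none is given for those series.

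Gabrg3, a gamma subunit gene well above background on 26 arrays, had r 0.80 with Gabra3, 0.75 with Gabra4 and 0.75 with Gabrb1, and 0.49 with its own neighbour Gabra5. These r include horizontal fraction 6 and sagittal fraction 9, where Gabrg3 was not well above background.

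Pairs of subunit genes with a tested probe were also compared by chromosome. Along chromosome 5, Gabrg1, Gabra2, Gabra4 and Gabrb1 gave 6 pairs with a median r of 0.55 (0.36 to 0.63). The 3 pairs on chromosome 7, which holds Gabra5 and Gabrg3, had a median of 0.58 (0.49 to 0.63). Gabrr2, Gabrr1 and Gabrd on chromosome 4 gave 3 pairs with a median of 0.23 (-0.17 to 0.29). No median is given for chromosome 11 or over all pairs, because the pairs of Gabra6 are among them.

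The inhibitory synapse list held 15 genes, all tested, among them the GABA synthesising enzymes Gad1 and Gad2, the vesicular transporter Slc32a1, the uptake carrier Slc6a11, the scaffold gephyrin (Gphn) and the chloride transporters Slc12a2 and Slc12a5. Of these, 6 had a coronal trend, 2 a horizontal one and 7 a sagittal one (33.7%, 15.8% and 14.7% of all probes), with median fitted ranges of 0.89, 0.77 and 1.25 log2, against 0.90, 0.74 and 1.06 over all probes. The coronal and horizontal counts were thus near the background. The sagittal set held Gad1 (adjusted p 0.0225), Gad2 (0.0251), Slc32a1 (0.0436), Gphn (0.0352), Slc12a2 (0.0110) and Gabarap (0.0325), and 6 of the 7 had their highest fitted value in fraction 4 or 5 and their lowest level in fraction 1. Without fraction 1, or without fractions 1 and 9 together, 0 of the 15 passed, where 0 and 2.9% of all probes did. The mean level of the list had r 0.78 with Gabrb2, 0.74 with Gabra2 and 0.69 with Gabrb1, and 0.10 with Gabrd. Without sagittal fractions 1 and 9 these were 0.71, 0.61, 0.60 and 0.0050.

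Region and cell type lists set the profiles against anatomy. Gabra4 was closest to the cerebral cortex list (r 0.87, with 0.93, 0.90 and 0.42 in the coronal, horizontal and sagittal series) and had 0.69 with the striatum list (0.83, -0.57 and 0.76) and -0.63 with the astrocyte list (-0.91, -0.29 and 0.07). Gabra3 also had its highest value with the cerebral cortex list (0.68), with -0.50 for the Purkinje cell list. Gabra5 had 0.54 with the cerebral cortex and 0.49 with the olfactory bulb list (0.58, 0.49 and -0.43 by series), and -0.65 with the Purkinje cell list (-0.93 in the coronal series). With the microglia list Gabra4, Gabra5 and Gabra3 had r 0.54, 0.46 and 0.39. These were 0.72, 0.65 and 0.72 in the coronal, 0.83, 0.14 and 0.10 in the horizontal, and -0.09, -0.005 and -0.19 in the sagittal series. The negative values with cerebellar lists came from the coronal series. With the cerebellar granule cell list Gabra3, Gabra4 and Gabra5 had -0.89, -0.82 and -0.80 there, 0.21, -0.08 and 0.85 in the horizontal series, and 0.45, 0.59 and -0.08 in the sagittal series. With the cerebral cortex list Gabra3 had -0.04 in the sagittal series.

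Gabrd ran the other way, with r 0.68 for the Purkinje cell list and 0.65 for the cerebellar granule cell list, and these were 0.59 or more in each series. Its sagittal values, 0.59 and 0.67, were 0.44 and 0.42 without fractions 1 and 9. Gabrb1 was closest to the hippocampus list (0.76) and had 0.70 with the neuron and 0.62 with the thalamus list. In the sagittal series its r with the hippocampus list was 0.75, and -0.063 without fractions 1 and 9. Gabrb2 had 0.71 with the neuron, 0.55 with the oligodendrocyte, 0.53 with the thalamus and 0.51 with the cerebellar granule cell list (0.22 with the last in the coronal series). Over the 28 fractions Gabra2 had at most 0.46 with any region list (striatum, with 0.66, 0.14 and 0.53 in the coronal, horizontal and sagittal series). With the hippocampus list it had 0.28, but 0.07, 0.37 and 0.97 by series. The oligodendrocyte list was lowest in sagittal fraction 1 (3.08) and horizontal fraction 1 (3.87), and its r with Gabrb2 was 0.90 in the sagittal series and 0.33 without fractions 1 and 9. The part of these cells in the Gabrb2 trend was not tested. Over all series without sagittal fractions 1 and 9, Gabra4 had 0.91 with the cerebral cortex list, Gabrb1 0.75 with the hippocampus list, Gabrd 0.71 with the Purkinje cell list, and Gabrb2 0.39 with the thalamus, 0.40 with the cerebellar granule cell and 0.23 with the oligodendrocyte list.

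**Figure D4:**
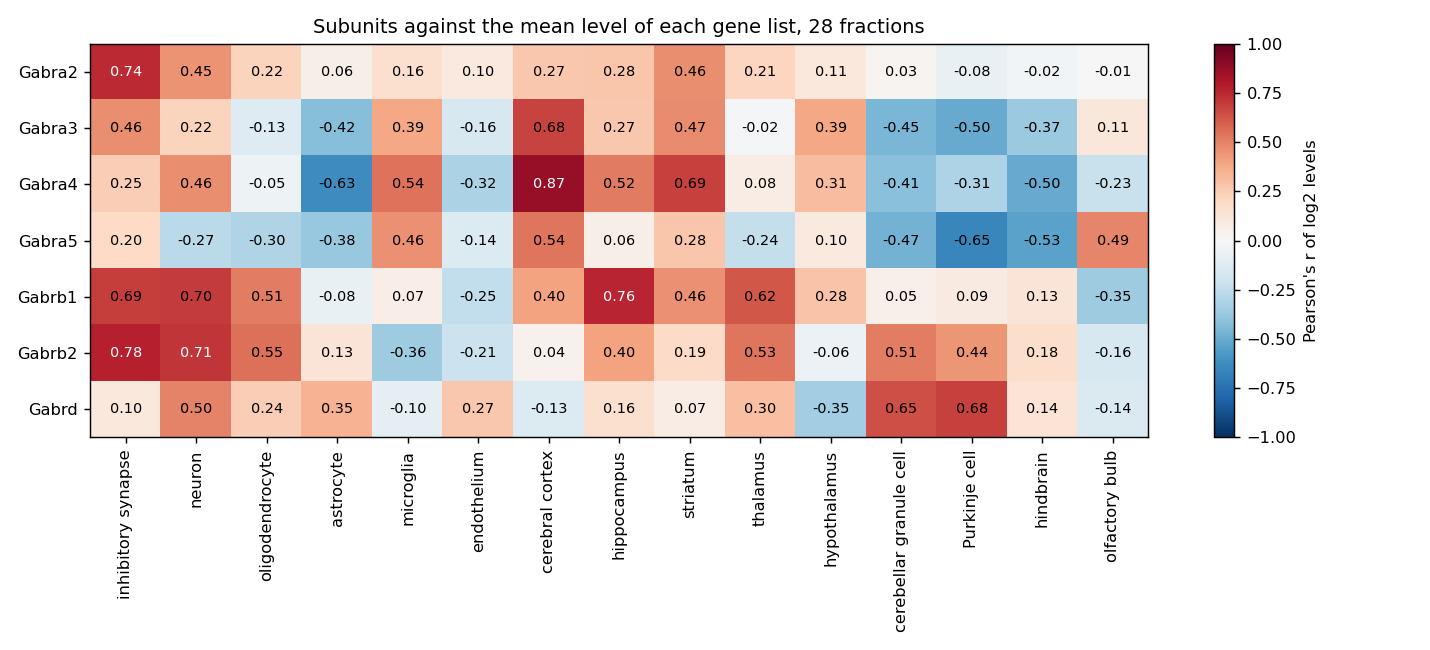
Pearson's r over 28 fractions between each of the 7 subunits and the mean log2 level of the inhibitory synapse list and of 14 region and cell type marker lists (colour from -1 to 1, value in each cell). The highest value is 0.87 for Gabra4 with the cerebral cortex list, and Gabra5 has -0.65 with the Purkinje cell list where Gabrd has 0.68.

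Among 15559 other symbols, the 3 nearest in profile to each subunit were found by r over 28 fractions. Gabra4 was followed by the potassium channel gene Kcnq5 (0.94), Mpv17l (0.93) and the G protein regulator Rgs4 (0.93). Gabra3 was followed by the transcription factor gene Tox (0.91), the protocadherin gene Pcdh10 (0.90) and the kinase gene Dapk1 (0.89), and Gabra5 by the phosphatase gene Ppm1e (0.91), the copine gene Cpne4 (0.89) and Matn2 (0.88). For Gabra5, Ppm1e had 0.96, 0.85 and 0.22 in the coronal, horizontal and sagittal series, Cpne4 had 0.94, 0.65 and 0.01, and Matn2 had 0.93, 0.31 and 0.72.

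Gabrb2 was followed by Bdp1 (0.97), the syntaxin-binding gene Stxbp5l (0.95) and the palmitoyltransferase gene Zdhhc21 (0.95), each over 0.93 in all 3 series. Gabrb1 was followed by the sulfatase gene Sulf2 (0.89), Rasgef1b (0.89) and Ppp2r2a (0.89), Gabrd by the small GTPase gene Diras2 (0.88), Rbfox3, which encodes the neuronal marker NeuN (0.87), and the sialyltransferase gene St8sia5 (0.87), and Gabra2 by Diaph2 (0.85), Lclat1 (0.82) and Pmepa1 (0.81). The number of symbols past r 0.85 was 229 for Gabrb2, 61 for Gabra4, 18 for Gabrb1, 16 for Gabra3, 10 for Gabra5, 6 for Gabrd and 0 for Gabra2. Without sagittal fractions 1 and 9 it was 71, 134, 12, 28, 30, 11 and 0 in the same order, so these numbers depend on those 2 arrays. The named neighbours changed as well: 1 of the 3 of Gabrb1, and 2 of the 3 of each other subunit, were still among the 3 nearest. No member of the 7 was among the 3 nearest of another.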

How the data were processed

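Total RNA of 28 brain fractions was labelled with 1 dye and hybridised to Agilent arrays. The deposited files hold scanner intensity per spot, which the authors extracted with Feature Extraction 10.5.1.1, and a table of log2 values that the authors had scaled to the 75th percentile of each array. The main measure was log2 of the processed signal minus that percentile, control and outlier spots left out and repeat spots averaged. It differed from the deposited log2 values by an offset of 0.00111 to 0.00758 per array. No spot was saturated, and repeat spots had a median SD of 0.056 to 0.0855 log2 per array. The number of arrays limits the precision.

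A probe was tested where it was well above background on at least 1 array of each series and had a usable spot on every array, which left 32364 of 55681 probes. Probes were named through RefSeq accessions (27235 probes, 48.9%), and RefSeq coordinates were not used because the array design is on another build, except for the promoter windows, which carry their own. Position was tested in each series with limma 3.58.1 in R 4.3.3, by an F-test on a natural cubic spline over fraction numbers (3 degrees of freedom, 2 in the horizontal series), adjusted by Benjamini-Hochberg over all tested probes. The same test was run on the log2 ratio to the mean of the 7 subunits, each of which is part of that mean. Correlations were computed in Python 3.11.15 and carry no test. The scripts were tested on simulated data.

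The genes named are the 7 subunits, the other GABA-A subunit genes and inhibitory synapse genes of fixed lists, and the 3 symbols nearest to each subunit. The members and lists were chosen with earlier results of these data known. The alternatives were the deposited log2 values, array-median and quantile scaling, normexp correction (offset 50, run on median spot signals because the files used here hold no mean signal), no detection filter, 1 degree of freedom fewer, the slide as a term, fractions of 1 slide, the second Gabra3 probe and each fraction left out. Slides came from the array files. Sim1 and Slc6a5 of the marker lists had no tested probe. Some genes of the lists entered their counts and means and are not reported here by name.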

Additional observations from a re-analysis of the deposited data

Results flagged for a closer look

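Of 14 sets of fractions examined (7 subunits in the sagittal and horizontal series), 1 had a value far from the rest. Gabrb2 in sagittal fraction 1 was at 2.19 and the nearest other fraction at 3.60, a gap of 0.538 of the whole range. About 0.7 such sets are expected by chance at 1 in 20. The fractions are positions and not replicates, so a distant value can also be a steep gradient. This fraction also had the lowest 75th percentile of signal (152). Its part in the value was not tested.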

How the results depend on the processing

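No paired analysis was possible because a fraction number marks a position along a different axis in each series and each number occurs once within a test. No fitted curve of a trend that passed ran against its own main curve, although the sign of pairs under r 0.7 could turn. Over the trends of single subunits, 655 alternatives left the call as it was, 63 lost it and 17 gained it. Most of the 655 were trends that failed in the main fit and failed again, while all 63 losses fell on trends that had passed. Some alternatives could hardly change a call. Gabra3 alone had a second probe, and the deposited values differed from the main ones by a small offset per array. Thus the 655 do not measure how stable the passing trends were. The number of subunits with a coronal trend (4) was 2 with the array median and 0 with the slide term, and 1 to 5 with a fraction left out. The horizontal number (1) was 5 with the array median and 0 with 1 degree of freedom fewer (0 to 1 with a fraction left out). The sagittal number (1) was 0 with the array median, the slide term, 1 degree of freedom fewer, fractions 5 to 10 alone or fractions 1 and 9 left out together, and 2 with normexp (0 to 2 with a fraction left out). Of ratio trends, the coronal number (3) was 5 with 1 degree of freedom fewer and 0 with the slide term (1 to 4 with a fraction left out). The horizontal number (0) was 1 with normexp or the second Gabra3 probe (0 to 1), and the sagittal number (1) was 0 with 1 degree of freedom fewer, the slide term, fractions 5 to 10 alone or fractions 1 and 9 left out together (0 to 1). Pairs over r 0.7 (1) numbered 7 with the array median, 2 with series means removed or without sagittal fractions 1 and 9, 0 with Spearman's rho, the second probe or the subunit mean removed, and 4, 8 and 5 in the coronal, horizontal and sagittal series alone (0 to 3 with a fraction left out). Pairs over r 0.85 (0) numbered 1 with the array median and 2 in the horizontal and in the sagittal series alone (0 with any fraction left out). Pairs below 0 (4) numbered 0 with the array median or in the horizontal series alone, 2 with rho, 7 with the second probe and 13 with the subunit mean removed (2 to 6). The cause of these shifts was not tested. Removing 2 sagittal fractions together, removing 3 arrays (these 2 and horizontal fraction 6, where all 7 subunits were lowest, which gave 1 pair over 0.7 and 6 below 0), leaving sagittal fractions out of the list counts and removing the subunit mean were chosen after seeing the data. The horizontal series lies on 1 slide, so a slide term could not be fitted there.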
